A study of Mus musculus with 6 samples.

Results

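The intermediate filament genes nestin (Nes) and vimentin (Vim), which epithelial cells usually lack, and 6 keratin genes of epithelia (Krt7, Krt8, Krt18, Krt19, Krt20 and Krt23) were followed in mouse intestinal stem cells that had or lacked the RING proteins of Polycomb repressive complex 1 (PRC1). They were taken by symbol, and each of the 8 has 1 RefSeq entry in each of the 2 deposited tables, which hold 18376 and 17076 entries. The set was selected on its levels in the 4 genotypes, the deposited means and ratios of both tables. The members' values, and the authors' p-values quoted with them, are therefore descriptions and no independent test.

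RNA was sequenced from Lgr5-GFP+ cells sorted from small-intestinal crypts of C57BL/6 mice. Lgr5 is a marker of crypt-base stem cells, and in all 4 groups the Lgr5Gfp-CreERT2 allele supplied both the reporter and a Cre recombinase that tamoxifen activates, so recombination was directed to Lgr5-expressing cells. All mice had 3 tamoxifen injections and were taken 6 days later; the labels give no age. WT (2 libraries) carried that allele alone. RingKO (2 libraries) was in addition Ring1a-/- and Ring1bf/f, the first being lost without Cre and the second through it. Bcat (1 library) carried Ctnnb1-ex3, an allele whose recombination gives a stabilised beta-catenin, and Bcat_RingKO (1 library) carried Ctnnb1-ex3 with the Ring alleles. The genotype field of the Bcat sample reads WT, and the group was taken from its title and strain. The labels do not say whether the libraries of a group came from separate mice, so the spread between them may be technical.

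Intermediate filaments are rope-like polymers of the cytoskeleton. Simple epithelia build them from pairs of 1 type I keratin (Krt18, Krt19, Krt20 and Krt23 here) and 1 type II keratin (Krt7 and Krt8), whereas mesenchymal cells use the type III protein vimentin. Nestin cannot form filaments alone, joins those of vimentin, and is widely used as a marker of neural progenitors. PRC1 ubiquitinates histone H2A through Ring1a (symbol Ring1) or Ring1b (Rnf2) and holds developmental genes silent, often at promoters rich in CpG dinucleotides.

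Because CpG content is the promoter feature most often tied to Polycomb targets, the 250 bases before the start of Nes, of Vim and of Krt20 are shown, as the members with the widest differences. They are from RefSeq (GRCm38.p6), 5′ to 3′ on the gene's strand, with every CpG in capitals. The Nes window is chr3:87970843-87971092 (plus strand), the Vim window chr2:13574061-13574310 (plus strand) and the Krt20 window chr11:99438154-99438403 (minus strand).
Nes: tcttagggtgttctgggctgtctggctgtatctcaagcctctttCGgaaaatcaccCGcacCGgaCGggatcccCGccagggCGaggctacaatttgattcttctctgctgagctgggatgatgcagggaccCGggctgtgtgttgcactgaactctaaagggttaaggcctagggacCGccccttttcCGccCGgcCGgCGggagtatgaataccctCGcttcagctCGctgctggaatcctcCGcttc
Vim: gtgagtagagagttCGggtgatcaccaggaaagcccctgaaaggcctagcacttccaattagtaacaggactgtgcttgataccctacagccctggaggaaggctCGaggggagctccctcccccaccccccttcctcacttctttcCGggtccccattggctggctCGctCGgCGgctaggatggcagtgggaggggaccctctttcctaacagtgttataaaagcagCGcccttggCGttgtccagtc
Krt20: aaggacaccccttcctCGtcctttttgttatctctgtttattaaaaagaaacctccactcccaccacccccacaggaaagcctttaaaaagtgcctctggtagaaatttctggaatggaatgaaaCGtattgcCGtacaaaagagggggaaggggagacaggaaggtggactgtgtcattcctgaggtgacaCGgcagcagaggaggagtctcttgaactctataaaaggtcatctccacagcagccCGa
Nes had 15 CpG in this window, Vim 8 and Krt20 5, against a median of 6 (quartiles 2 and 16) over 32851 RefSeq promoters of the same length. Of the other keratins, Krt7 had 16, Krt18 12, Krt23 5 and Krt8 3, and Krt19 has no entry. The TATA box letters TATAAA, searched on the gene's strand, were found in the Vim window 32 bases and in the Krt20 window 29 bases before the start, and 7.59% of all promoters hold them. CTTTGAT, a core of the sites of TCF factors that beta-catenin joins, was found on neither strand in any member, against 3.21% of promoters. CACCTG, an E-box bound by Snail and ZEB factors, was found on either strand in Krt7, Krt8, Krt18 and Krt23, against 17.2% of promoters. These are letter matches and not measured sites.

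Library depth ranged from 922153 assigned reads (Bcat) to 6753789 (WT library A), with 4470853 for Bcat_RingKO and 2651201 for the shallower RingKO library. A and B name the libraries of a group and cannot be matched to the labels' replicate numbers. Normalized reads are reads divided by the size factor of the library. As a check of the genotypes, Ring1 went from 484 and 363 reads (WT) to 9 and 11 (RingKO). It went from 53.7 normalized reads in Bcat to 19.2 in Bcat_RingKO. The deposited log2 ratio of Ring1 was −4.17 in RingKO and −1.51 in the pair, a smaller fall. The source of the Ring1 reads left in Bcat_RingKO was not tested. Rnf2 was counted over the whole gene, where loss of a floxed part need not show, and checks nothing: it had 141 and 173 normalized reads in WT, 202 and 148 in RingKO, and 174 and 244 in the pair. The sorted cells carried the epithelial and stem cell genes their label implies: Epcam had 9619 and 9589 reads (WT), then 5141 and 3875 (RingKO). Those RingKO libraries were shallower: the deposited Epcam mean was 6453 normalized reads for WT and 6436 for RingKO, a log2 ratio of −0.004. Lgr5 itself had 602 and 650 normalized reads in WT and 655 and 319 in RingKO, and in the pair 326 without and 673 with the Ring alleles. Of 10 stem cell markers 2 fell in RingKO (Ascl2 and Cdca7). Replicates were closer in WT than in RingKO: the SD of their log2 ratio was 0.241 and 0.449, taken over 7939 entries whose mean reached 50 normalized reads. The deposited log2 ratio of RingKO to WT had a median of −0.21 over those entries, so 0 lies above the middle of expressed genes. For Bcat_RingKO to Bcat the median was 0.29, over 7911 entries.

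Nes was close to absent in WT and well expressed in RingKO. The WT libraries held 5 and 7 reads and the RingKO libraries 363 and 331, which is 0.740 and 1.11 against 125 and 125 CPM (reads scaled to the library's assigned total). Both RingKO libraries were far above both WT libraries. In the authors' deposited table the mean rose from 4.74 to 497 normalized reads, 105-fold (log2 6.71, adjusted p = 1.64e-71), which placed Nes 18th of 18376 entries by fold and 2nd by p. The edgeR log2 fold change was 7.08 ± 0.23 (SE). Among all entries 3.14% were called higher and 1.76% lower at an adjusted p under 0.05 (4.9% in either direction); since the members were proposed with this contrast known, nothing is read from their share.

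Nes showed the same contrast where beta-catenin was stabilised. The Bcat library had 0 reads of 922153 and the Bcat_RingKO library 510 of 4470853, or 114 CPM. A count of 0 allows up to 3 reads, a normalized value of 6.71, so Nes was at least 34.0-fold higher in Bcat_RingKO; the lower 95% limit of the exact conditional binomial interval, which covers counting error only, was 27.6-fold. With 1 library in each group there is no replicate check. Nes had the highest deposited fold of all 17076 entries of the second table. The comparisons do not share libraries, and 24 of 16387 entries in both tables were at least 32-fold higher in both.

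**Figure D1:**
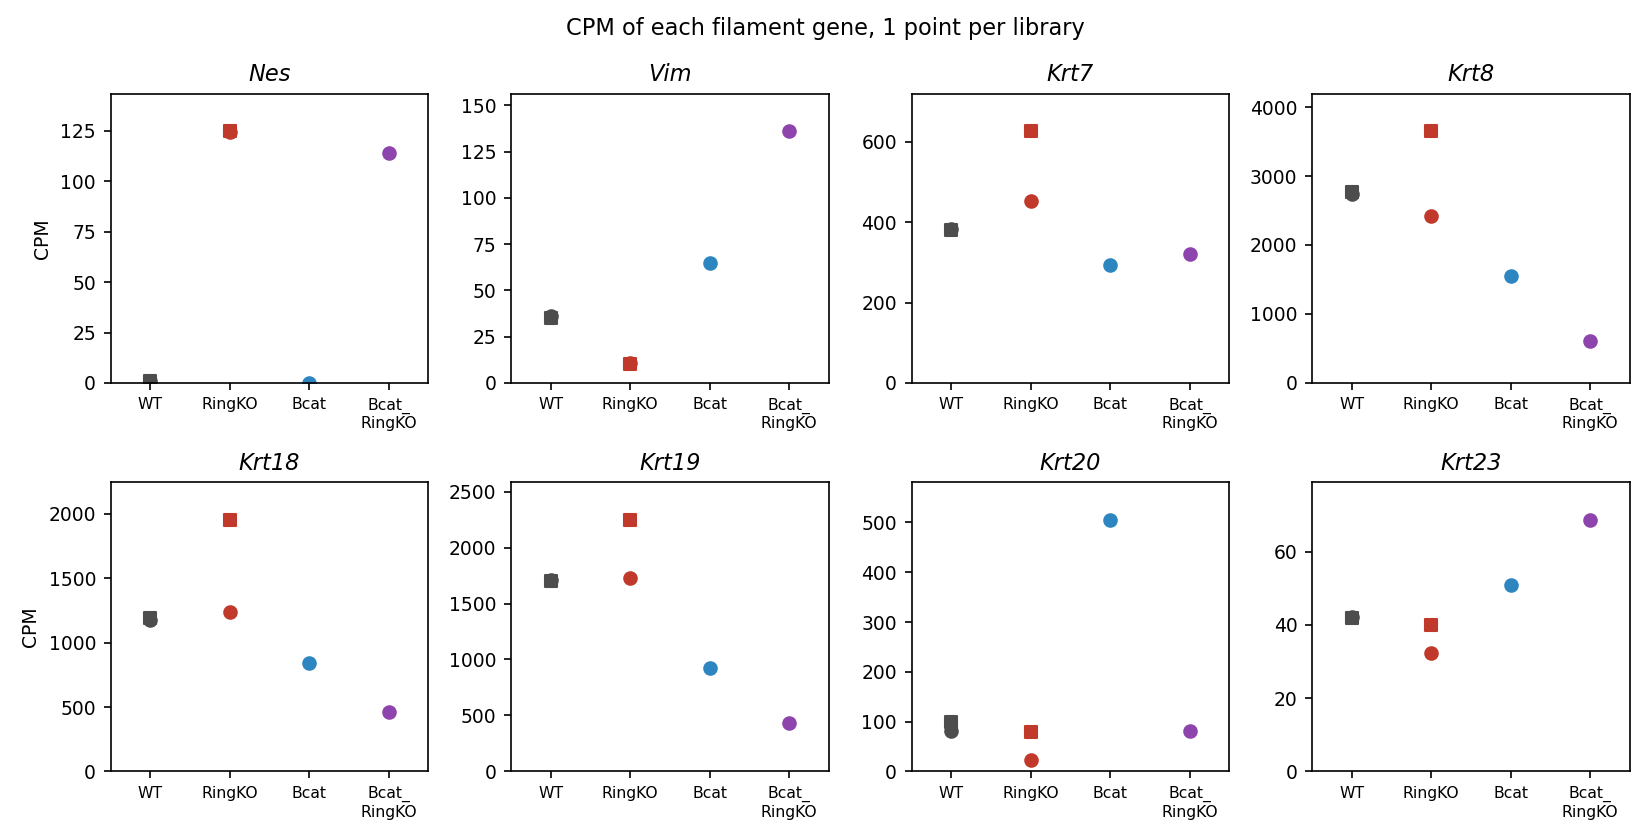
CPM of the 8 filament genes, 1 panel a gene with its own linear axis from 0, and 1 point per library (circles are A or single libraries, squares B). Nes sits at 0.740 and 1.11 in WT and at 125 in both RingKO libraries, while Vim sits at 36.1 and 35.1 against 10.6 and 10.2. The WT points of Krt8 rest on the more alike of its arithmetic solutions.

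Vim, the other filament gene outside the keratins, went the other way in RingKO. The WT libraries held 244 and 221 reads and the RingKO libraries 31 and 27, or 36.1 and 35.1 against 10.6 and 10.2 CPM. The libraries of each group were close together and the groups did not overlap. In the authors' deposited table Vim fell from 157 to 42.8 normalized reads, 3.65-fold lower (log2 −1.87, adjusted p = 1.01e-05), and edgeR gave a log2 fold change of −1.73 ± 0.19 (SE). In a bulk sample, fewer cells of a type and less RNA per cell cannot be told apart.

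In the beta-catenin pair Vim was higher with the Ring alleles. It had 60 reads in Bcat and 608 in Bcat_RingKO, or 65.1 and 136 CPM. The ratio of normalized reads was 2.03, with an exact conditional binomial 95% interval of 1.55 to 2.69 for counting error only. Deposited values, which carry 1 added read, gave a log2 ratio of 1.00 just under the 2-fold mark. Relative to the median entry of each comparison, the log2 ratio of Vim was −1.66 in RingKO and 0.71 in the pair. Of 283 entries called lower in RingKO and with at least 50 normalized reads in a group of each comparison, 13 were past 2-fold higher in the pair.

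Vim is made by fibroblasts, endothelium and leukocytes, so markers of those cells are given beside it. Of 9 fibroblast markers in the table none was called in either direction, and the sum of their normalized reads went from 613 and 668 (WT) to 938 and 629 (RingKO), nearly all from Fbln1. Among their defining genes, Pdgfra had 0 reads in both WT libraries. Summed endothelial markers (11, none called) were 160 and 165 in WT against 159 and 142 in RingKO, and Pecam1 had at most 1 read in a library. Leukocyte markers (11, none called) came to 68.4 and 53.6 against 68.2 and 97.6, with 2 and 0 reads of Ptprc in WT and 0 in both RingKO libraries. In these 3 lists no gene had a deposited unadjusted p under 0.05, and edgeR, DESeq2 and limma-trend called 0. Only 3 of the 9 fibroblast, 3 of the 11 endothelial and 4 of the 11 leukocyte markers averaged 10 or more normalized reads. For the rest a call was unlikely, so its absence decides nothing. Of 8 smooth muscle and pericyte markers Myl9 rose, and of 8 enteric glia and neuron markers Erbb3 fell, a call made by limma-trend and not by edgeR or DESeq2. Markers of tuft cells, the chemosensory cells of the epithelium, did move with Vim: 5 of 10 fell (Trpm5, Avil, Alox5, Rgs13 and Alox5ap), and their sum was 881 and 886 in WT against 246 and 271 in RingKO. In the pair the fibroblast sum was 277 in Bcat and 296 in Bcat_RingKO, of which Fbln1 made 157 and 291, and the other fibroblast markers went from 121 to 4.92. The endothelial sum was 47.0 and 119, of which Esam made 31.3 and 100.2, and the others 15.7 and 18.3. Leukocyte sums were 181 and 106, smooth muscle and pericyte sums 228 and 408, and enteric glia and neuron sums 353 and 495. Tuft cell sums were 751 and 496. Most of the tuft cell fall was Rgs13, with deposited values of 253 in Bcat and 27.7 in Bcat_RingKO. Of 6 tuft cell markers with at least 50 normalized reads in the pair, 2 were past 2-fold lower (Rgs13 and Alox5ap) and none higher. Within 2-fold, Alox5 was lower (deposited log2 −0.84), and Trpm5 (0.29), Avil (0.18) and Pou2f3 (0.07) were higher. The part of the markers of these cells in the Vim values was not tested.

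The simple-epithelium keratins Krt8, Krt18 and Krt19 were the most abundant members. Krt8, the main type II keratin of gut epithelium, had 18545 and 17467 reads (WT) and 7028 and 9674 (RingKO), or 11853 and 12308 against 9987 and 13892 normalized reads. Its WT mean has 2 arithmetic solutions, of which the more alike pair was taken (the other is 671 and 23490 normalized reads), so the closeness of the WT libraries is chosen here and not observed. The groups overlapped, and the deposited log2 ratio was −0.02 (adjusted p = 1), which turned to 0.17 ± 0.21 (SE) in edgeR under TMM scaling. Krt18, its usual type I partner, had 5081 and 5274 normalized reads in WT and 5134 and 7440 in RingKO, which overlapped (deposited log2 0.28, adjusted p = 1). Krt19, a type I keratin of simple and ductal epithelia, had 7399 and 7557 in WT and 7156 and 8561 in RingKO (deposited log2 0.07, adjusted p = 1). For Krt18 and Krt19 the RingKO libraries differed from each other more than the WT libraries did, and library B was the higher for all 3. The sum of 10 Lgr5 stem cell markers was the lower in that library, at 12596 normalized reads against 24969 in RingKO library A. In WT it was 31120 and 35861. By deposited mean its largest part was Olfm4, at 21378 in WT and 9018 in RingKO, a change the deposited test did not call. Some WT means of 10922 or higher had several solutions. The part of this sum in the keratin values was not tested. Without RingKO library A, edgeR gave log2 0.42 for Krt8, 0.74 for Krt18 and 0.42 for Krt19 and called all 3, but such a fit has 1 RingKO library, which is assumed to vary as the WT libraries do.

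With stabilised beta-catenin the same 3 keratins were lower in the library with the Ring alleles. Krt8 had 1426 reads in Bcat and 2748 in Bcat_RingKO, a ratio of normalized reads of 0.385 (0.361 to 0.411, exact conditional binomial 95% interval). For Krt18 the reads were 774 and 2072, a ratio of 0.535 (0.493 to 0.582), and for Krt19 they were 849 and 1929, a ratio of 0.454 (0.419 to 0.493). Of all 7911 entries with at least 50 normalized reads in 1 of the 2 libraries, 25% were past 2-fold higher and 8.08% past 2-fold lower, 33.1% in all. Krt8, Krt19 and Krt20 were among the lower, Nes was the higher, and the other 4 members lay within 2-fold. Abundant transcripts in general were lower in Bcat_RingKO: of 198 entries that averaged 1000 or more normalized reads over the pair, which include these 3 keratins, 54.5% were past 2-fold lower and 3.54% past 2-fold higher, with a median deposited log2 ratio of −1.10. The 3 keratins lay on either side of that median (Krt8 −1.38, Krt18 −0.90, Krt19 −1.14). The ribosomal protein gene Rplp0 was at −2.01, the glycolytic Gapdh at −1.56 and the actin gene Actb at −1.14. In RingKO against WT the median over 763 entries of that abundance was −0.20. Summed epithelial markers were also lower in the pair (8642 in Bcat, 5877 in Bcat_RingKO). They were 25590 and 26778 in WT against 25844 and 23918 in RingKO. Of 7 with at least 50 normalized reads in the pair, 2 were past 2-fold lower (Epcam and Lgals4) and none higher. The median deposited log2 ratio of all 10 in the pair was −0.34. The part of these markers in the keratin values was not tested.

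**Figure D2:**
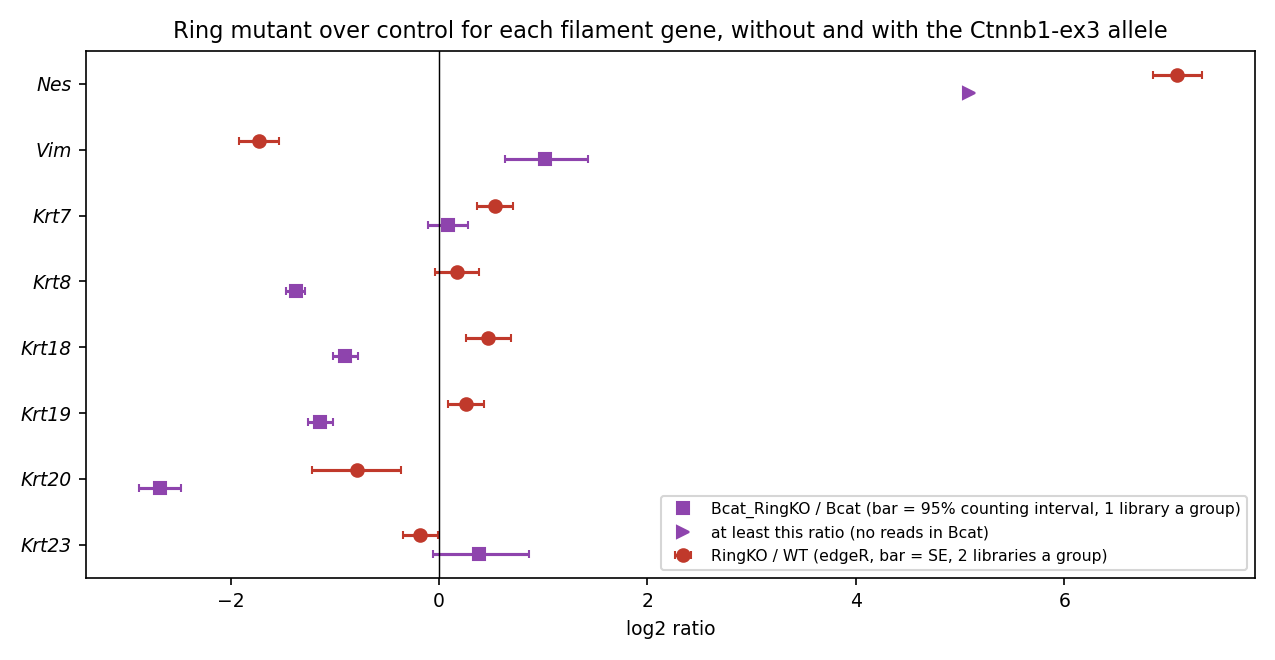
Log2 ratio of the Ring mutant to its control for each of the 8 genes, without (WT and RingKO, 2 libraries each) and with (1 library each) the Ctnnb1-ex3 allele; bars are the edgeR SE in the first comparison and the exact counting interval in the second. Nes stands at 7.08 in the first and is drawn as an arrow at its lower bound in the second, Vim lies on opposite sides of 0, and Krt8, Krt18, Krt19 and Krt20 lie below 0 in the second.

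Krt20, a type I keratin of differentiated villus cells, varied most of the 8 between the RingKO replicates. Its reads were 554 and 620 in WT but 67 and 211 in RingKO, or 354 and 437 against 95.2 and 303 normalized reads. RingKO library B was 3.18 times library A, both stood below both WT libraries, and the deposited change did not pass (log2 −0.98, adjusted p = 0.569). Without RingKO library B edgeR gave log2 −1.90 and a call, with the spread taken from the WT libraries, and without library A the value was −0.16. In the pair Krt20 had 466 reads in Bcat and 365 in Bcat_RingKO, a ratio of 0.157 (0.136 to 0.180). Enterocyte markers moved with it there: 8 of 11 were past 2-fold lower and none higher, with summed normalized reads of 10720 in Bcat and 3750 in Bcat_RingKO. In RingKO against WT 1 of the 11 rose and 3 fell (Fabp2, Mep1a and Sis), with sums of 5464 and 5041 in WT and 4803 and 6583 in RingKO. Their part in the Krt20 values was not tested.

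Krt7, a type II keratin of ducts and other simple epithelia, had 1654 and 1682 normalized reads in WT and 1870 and 2384 in RingKO. The groups did not overlap, and the deposited change did not pass (log2 0.35, adjusted p = 0.564). Without RingKO library A edgeR gave log2 0.74 and a call, again with 1 RingKO library and the spread of WT. In the pair its ratio was 1.06 (0.929 to 1.21), from 270 and 1430 reads, and TMM scaling put it below 1 (log2 −0.14). Krt23, a type I keratin, had 182 and 185 normalized reads in WT and 134 and 152 in RingKO, again without overlap and without passing (log2 −0.35, adjusted p = 0.836). Its ratio in the pair was 1.31 (0.959 to 1.82), from 47 and 307 reads.

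At the authors' adjusted p under 0.05, a threshold set here, 1 member rose in RingKO (Nes), 1 fell (Vim) and the 6 keratins did not pass. The libraries of the groups did not overlap for 5 of the 8, 2 higher and 3 lower. Over the 7939 entries with a mean of at least 50 such separation was found in 66.4%, 14.5% with RingKO higher and 51.9% with RingKO lower. The median deposited log2 ratio of the 6 keratins was 0.03 in RingKO against WT, beside −0.21 over those entries. In the pair it was −1.02, beside 0.29 over all entries with at least 50 normalized reads and −1.10 over the 198 abundant entries.

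In CPM per kb of transcript, which allows levels of different genes to be compared, the order in WT was Krt8 (1410 ± 10.4, SD, n = 2), Krt19 (1084 ± 4.60), Krt18 (823 ± 5.79), Krt7 (93.1 ± 0.69), Krt20 (46.8 ± 6.04), Krt23 (26.8 ± 0.19), Vim (16.2 ± 0.33) and Nes (0.151 ± 0.043). From Krt19 down, each step of that order was wider than the SDs of the neighbours. The SD of Krt8 follows from the solution taken for its WT libraries, so nothing is read from its step above Krt19. In RingKO the top 3 kept their order but not beyond their spread (Krt8 1548 ± 446, Krt19 1262 ± 233, Krt18 1112 ± 351). Krt7 followed at 132 ± 30.1, and Krt20 (26.6 ± 20.8), Krt23 (23.1 ± 3.48) and Nes (20.4 ± 0.019) did not differ beyond their spread, above Vim at 4.75 ± 0.15. Per kb of coding sequence, Krt23 (28.5 ± 4.30) and Nes (22.3 ± 0.021) did differ beyond it. On either length Nes was far under Krt8. In the single Bcat library Krt8 was at 790, Krt20 at 262 and Vim at 29.7, with Nes at 0. In Bcat_RingKO they were at 314, 42.4, 62.0 and 18.6. The tables were scaled separately by the authors and these levels rest on total reads, so no test is made across them.

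Within a library, Vim exceeded Nes 136-fold and 88.2-fold per kb in WT, and Nes exceeded Vim 4.19-fold and 4.39-fold in RingKO. In Bcat_RingKO Vim was again the higher, by 3.33-fold. As a share of the summed per-kb level of the 8 genes, Nes and Vim together made up 0.476% and 0.461% in WT and 0.750% and 0.511% in RingKO. Their share was 1.26% in Bcat but 6.98% in Bcat_RingKO. All WT shares given here rest on the solution taken for Krt8. Krt20 made up 1.22% and 1.46% in WT and 0.355% and 0.844% in RingKO, against 11.1% in the Bcat library and 3.67% in Bcat_RingKO. Krt18 stood at 0.584 of Krt8 in both WT libraries, given the solution taken for Krt8, and at 0.700 and 0.730 of it in RingKO. In the pair that ratio was 0.740 without and 1.03 with the Ring alleles. Given the solution taken for Krt8, the 6 keratins took 0.614% and 0.619% of a WT library's reads. They took 0.589% and 0.860% of a RingKO library's, 0.416% in Bcat and 0.198% in Bcat_RingKO.

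**Figure D3:**
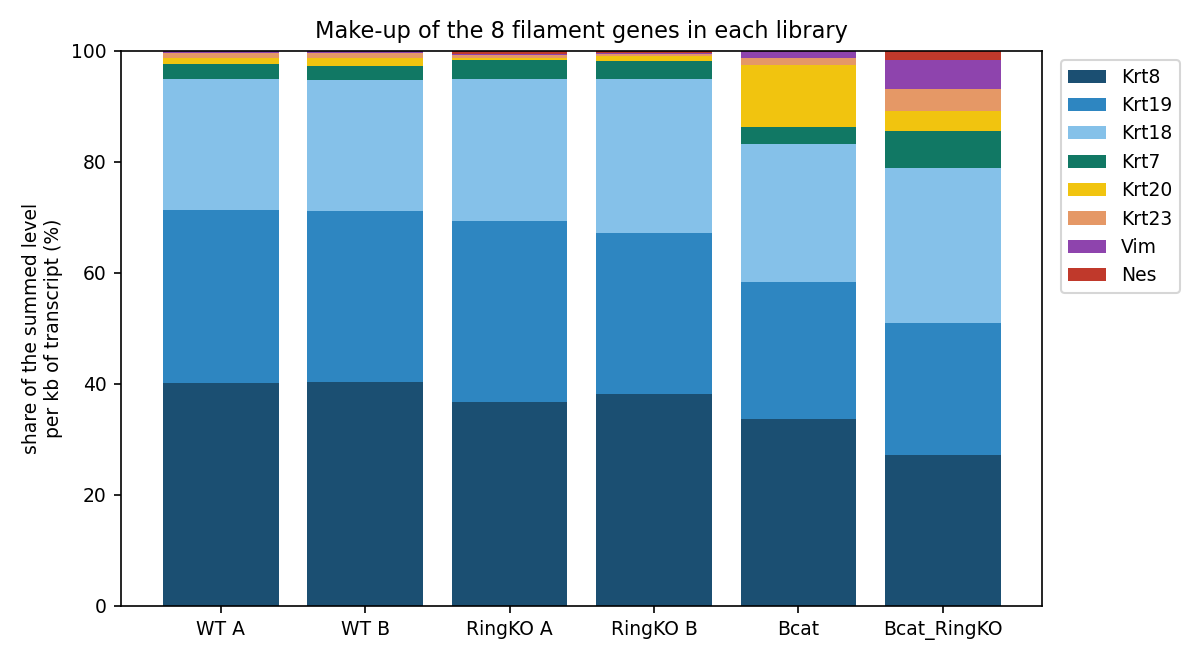
Share (percent) of each of the 8 genes in their summed level per kb of transcript, 1 bar per library. Krt8, Krt19 and Krt18 fill most of every bar, and Nes with Vim reaches 6.98% in Bcat_RingKO. The WT bars rest on the solution taken for Krt8.

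The remaining intermediate filament genes were looked at by type. None of 15 other type I keratins and none of 11 other type II keratins in the table was called in either direction. Of these keratins, 0 had a deposited unadjusted p under 0.05, and edgeR, DESeq2 and limma-trend called 0. Only 2 of the 15 and 3 of the 11 averaged 10 or more normalized reads. The rest were too low for a call to be likely, so their lack of calls decides nothing. Of 12 other genes of types III to VI, 2 rose and 1 fell, where 3.14% of all entries were called higher and 1.76% lower. The list was chosen with earlier results of these data known, so nothing is read from this count. Nefh, the heavy neurofilament subunit, went from 4 and 14 reads to 52 and 29 (deposited log2 3.10, adjusted p = 0.00769). Ina, the neuronal filament protein internexin, went from 1 and 2 reads to 15 and 10 (log2 3.51, adjusted p = 0.0165). Lmnb1, a B-type lamin of the nuclear lamina, went from 2727 and 2632 reads in the deeper WT libraries to 895 and 686 (log2 −0.67, adjusted p = 0.0177). DESeq2 and limma-trend also made that call, and edgeR did not (adjusted p = 0.0767). Lmnb2 was called by limma-trend alone. Desmin (Des) and Gfap, type III proteins of muscle and glia, had at most 2 reads in any WT or RingKO library. In the pair Nefh was higher, from 2 reads in the shallow Bcat library to 112 in Bcat_RingKO. Its deposited values, which carry 1 added read, were 6.71 and 50.5 (log2 2.91).

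**Figure D4:**
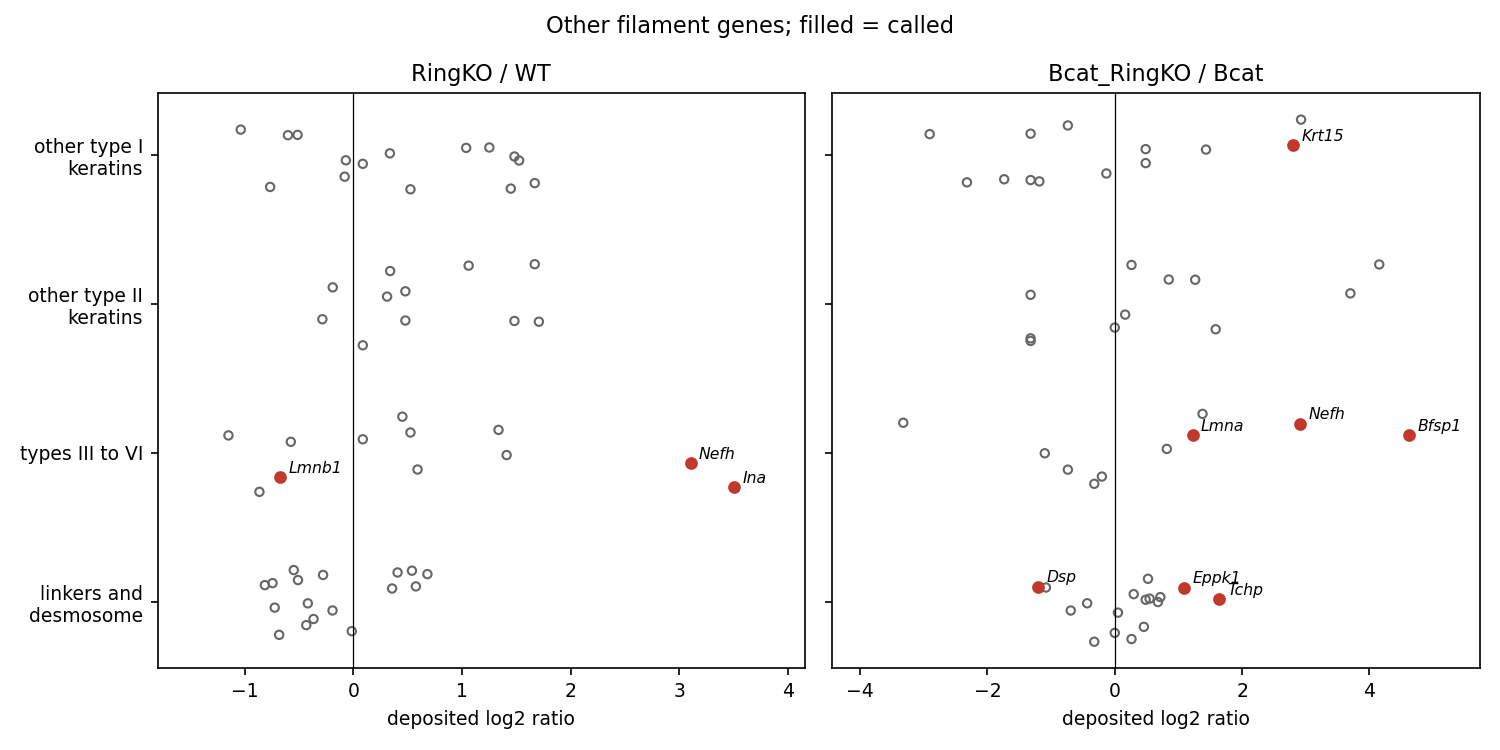
Deposited log2 ratio of other intermediate filament genes and of filament linker genes, RingKO against WT and Bcat_RingKO against Bcat, each point 1 gene; filled points had an authors' adjusted p under 0.05 in the first and 2-fold with at least 50 normalized reads in the second. Nefh (3.10) and Ina (3.51) rose in the first comparison, and no linker gene was called there by the deposited test.

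None of 17 linker and desmosome genes, which tie filaments to junctions, was called in RingKO by the deposited test (5 had an unadjusted p under 0.05), and their median deposited log2 ratio was −0.37. Periplakin (Ppl), a linker of keratin filaments (deposited log2 0.68, adjusted p = 0.156), was called by edgeR, DESeq2 and limma-trend, and limma-trend also called Pkp2. In the pair, Eppk1 and Tchp, which bind keratin filaments, were past 2-fold higher, and desmoplakin (Dsp) was lower, with 1816 reads in Bcat and 3951 in Bcat_RingKO (log2 −1.20). Of 7 genes of the epithelial to mesenchymal transition, with which vimentin is often read, only Twist1 rose, from 0 and 2 reads to 15 and 19 (log2 4.22, adjusted p = 0.00049). Of 7 neural progenitor genes, with which nestin is often read, Sox3 rose from 0 and 2 reads to 184 and 109 (log2 7.26, adjusted p = 1.58e-09) and Sox2 from 1 and 3 to 18 and 12 (log2 3.48, adjusted p = 0.00624). The RNA-binding protein gene Msi1 of the same list, which crypt stem cells also express, fell (830 and 802 reads to 232 and 175, log2 −0.91, adjusted p = 0.00292).

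In all, 7621 entries had at least 50 normalized reads in a group of each comparison. With unnamed predicted genes left out, those nearest to Nes in the plane of the 2 deposited log2 ratios were the homeobox genes Barx1 (7.30 in RingKO, 5.88 in the pair) and Lhx2 (6.69 and 5.57) and the zinc finger gene Zic2 (7.45 and 5.83). Their distances were 0.99, 1.10 and 1.12 log2 units. All 4 had 0 reads in Bcat, so their ratios in the pair, and these distances, depend on the 1 read added to each deposited value. Each point rests on the same 6 libraries. Past 2-fold higher in both comparisons were 336 of the 7621. Nearest to Krt8 were Arpc1a, a subunit of the actin-branching Arp2/3 complex, Uqcr11 of the respiratory chain and the reductase gene Akr1a1, within 0.064. None of the 3 genes on either side of Nes (Rrnad1, Isg20l2 and Crabp2, then Bcan, Gpatch4 and Ttc24) was called in RingKO, nor was any of those beside Vim (Rsu1, Cubn and Trdmt1, then St8sia6, Stam and Tmem236). In each set of 6 neighbours 1 had a deposited unadjusted p under 0.05. Among the neighbours edgeR and DESeq2 called 0, and limma-trend called Tmem236. Crabp2, Bcan, Gpatch4 and Ttc24 beside Nes, and St8sia6 beside Vim, had at most 7 reads in any WT or RingKO library. These were too low for a call to be likely, so their lack of calls decides nothing.

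**Figure D5:**
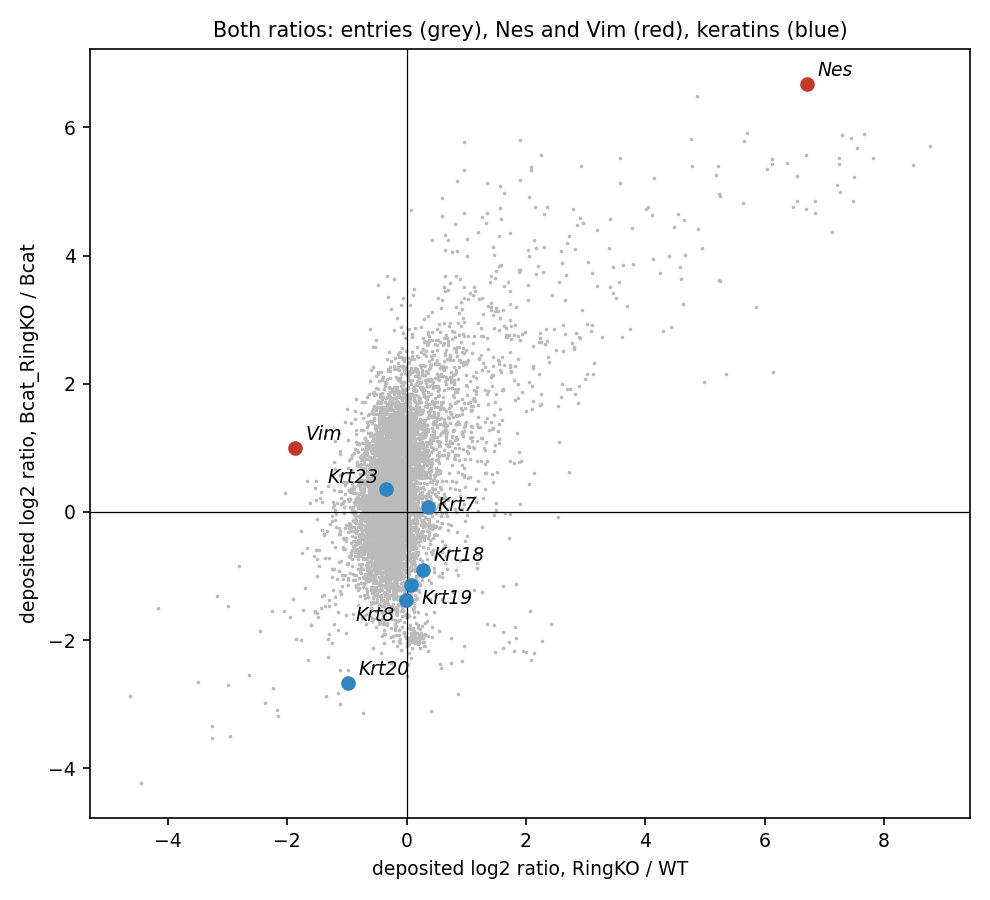
Deposited log2 ratio of RingKO against WT (horizontal) and of Bcat_RingKO against Bcat (vertical) for 7621 entries (grey) with the 8 filament genes marked. Nes lies at 6.71 and 6.68, far up the diagonal, Vim at −1.87 and 1.00, and Krt20 at −0.98 and −2.67.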

How the data were processed

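Libraries were made with the TruSeq RNA v2 kit from RNeasy Plus Micro RNA of sorted cells, per the labels' protocols. TopHat, DESeq and the build mm9 appear, with no versions, in the submitters' processing notes; for the read counter, annotation and strandedness nothing is given in the sources used here. The authors deposited normalized coverage (signal) per RefSeq entry, as group means for WT and RingKO and single values for the Bcat pair, with a fold (ratio), its log2 value and, for both tables, p-values. The deposited p-values of the Bcat pair were not used, since each group is 1 library.

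From the values, a deposited signal is reads plus 1 over a size factor, so reads per library were recovered: 18360 of 18376 WT means had 1 solution and 16 several (at means of 10922 or higher), all RingKO means had 1, and in the pair 100% were whole within 0.001. The threshold was the authors' deposited adjusted p under 0.05. edgeR 4.0.16 (quasi-likelihood, TMM, filterByExpr, Benjamini-Hochberg) gave log2 fold changes with SE; DESeq2 1.42.0 and limma 3.58.1 were alternatives. The scripts were tested on simulated data. Groups came from titles and strains. Lengths, gene order and promoters are from GRCm38 annotation, and no coordinates of the files' build are given.

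The members and the 15 gene lists were chosen with earlier results of these data known. Named genes are the 8 members, Ring1, Rnf2 and Lgr5, the 3 entries nearest to Nes and to Krt8, and up to 4 called genes of each other list by smallest adjusted p. The fifth tuft cell gene, Pou2f3, Epcam, Lgals4, Olfm4, Lmnb2, Fbln1, Pdgfra, Pecam1, Ptprc, Mylk, Cspg4, Des, Gfap, Rplp0, Gapdh, Actb, Esam, Ppl, Pkp2, Eppk1, Tchp, Dsp, the neighbouring genes and the genes of the closing observations were named after their values were seen.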

Additional observations from a re-analysis of the deposited data

Results flagged for a closer look

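Vim was lower in RingKO than in WT and higher in Bcat_RingKO than in Bcat, and a result in opposite directions under the same alleles is listed for a closer look. Both RingKO libraries (10.6 and 10.2 CPM) lay below both WT libraries (36.1 and 35.1), and the Bcat_RingKO library (136) lay above the Bcat library (65.1). The deposited log2 ratios of −1.87 and 1.00 differ by 2.87. This difference was not tested, because the pair has 1 library in each group.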

How the results depend on the processing

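No paired analysis was possible because the deposited columns carry no replicate numbers. The deposited test called 900 entries (64.1% higher). edgeR called 1437 (77.0% higher), 1441 (77.8%) with DESeq2 size factors and 1375 without a filter; DESeq2 called 1112 (78.4%) and limma-trend 1322 (56.7%). Leaving out 1 library gave 566 to 3276, the lowest without WT library A and the highest without RingKO library A. The members called numbered 2, or 2 to 6 with 1 library left out: 6 without RingKO library A and 3 without RingKO library B. The log2 fold change of Nes was 5.17 and that of Vim −1.69 with a pseudocount of 10; leaving out 1 library gave 6.79 to 7.38 and −1.78 to −1.67, called each time. Krt8 turned from −0.02 to 0.17 in edgeR, 0.18 with DESeq2 size factors, 0.13 without a filter, 0.21 at a mean of at least 50 and 0.16 in DESeq2, and ranged from −0.13 to 0.42 with 1 library left out. That range was 0.31 to 0.74 for Krt7, 0.14 to 0.74 for Krt18, 0.085 to 0.42 for Krt19 and −1.90 to −0.16 for Krt20. Without RingKO library A, Krt7 (0.74), Krt8 (0.42), Krt18 (0.74) and Krt19 (0.42) passed the threshold, and without RingKO library B Krt20 (−1.90) did. A fit without 1 library leaves 1 in that group, assumed to vary like the other group, so these calls rest on the spread of the WT libraries. For Krt8 that spread follows from the solution taken. Krt23 was −0.21 with TMM and −0.22 with total reads. In the pair Nes was 4.57 with a pseudocount of 10, and no value exists without a pseudocount. TMM shifted the pair by −0.21, giving −0.14 for Krt7 (from 0.08), −1.59 for Krt8, −1.12 for Krt18, −1.35 for Krt19 and −2.89 for Krt20. Per kb of coding sequence the WT levels were 25.5 for Vim, 278 for Krt7, 1878 for Krt8, 932 for Krt18, 1413 for Krt19, 69.8 for Krt20 and 33.2 for Krt23. The Bcat library was the shallowest, at 922153 reads.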

Other observations

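Several filament genes outside the members, picked here for their values, were higher in Bcat_RingKO than in Bcat. Over all entries with at least 50 normalized reads in the pair, 25% were past 2-fold higher. The median deposited log2 ratio was −0.74 over 13 other type I keratins, 0.26 over 11 of type II and 0.31 over 10 genes of types III to VI. Krt32 (−2.91), Krt222 (−2.32), Des (−3.32) and Nefm (−1.10) were lower, on few reads. Krt15, a type I keratin, had 4 reads in Bcat and 173 in Bcat_RingKO. The ratio of normalized reads was 8.65 (exact conditional binomial 95% interval 3.32 to 32.1). WT held 159 and 192 reads of Krt15 and the shallower RingKO libraries 63 and 94, a deposited log2 ratio of −0.07. Bfsp1, the lens filament protein filensin, had 0 and 122 reads in the pair, at least 8.13-fold higher against the limit of 3 reads. Krt78 had 0 and 88 reads in the pair, at least 5.87-fold higher. WT held 61 and 88 reads of Krt78 and RingKO 43 and 18, a deposited log2 ratio of −0.19. The A-type lamin gene Lmna had 23 and 279 reads in the pair, a ratio of 2.43 (1.58 to 3.89), and 24.9 CPM in Bcat and 62.4 in Bcat_RingKO beside 27.4 and 29.4 in WT.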
